A study of Mus musculus with 6 samples.

Results

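Cadherin and protocadherin genes were examined in the mouse lung cancer cell line 344SQ after transfection with short hairpin RNA (shRNA) vectors, either a control or one directed at Pik3ca. Pik3ca encodes the catalytic subunit p110-alpha of phosphoinositide 3-kinase. Members were the probe sets of an Affymetrix mouse array whose annotation gives exactly 1 gene symbol and whose symbol is Cdh followed by a number or starts with Pcdh. This gave 101 of the 45101 probe sets, for 56 genes: 21 cadherin genes with 39 probe sets and 35 protocadherin genes with 62. Each group had 3 arrays. All cells were grown in RPMI with serum, and the hairpin vectors were delivered by lipid transfection. The labels do not say whether the shRNA cells were a pool or a clone, or what the control hairpin targets. They also do not say that replicates were separate cultures, so a p-value here reflects the spread of these arrays alone, which may be technical.

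Cadherins are calcium-dependent adhesion proteins of the cell surface. The classical ones bind the same cadherin on a neighbouring cell and hold actin through beta-catenin and alpha-catenin at adherens junctions. Protocadherins have more extracellular repeats and no catenin-binding tail of that kind, and they are best known from neurons, where the alpha, beta and gamma clusters give cells a surface identity. In epithelial tumours E-cadherin, the product of Cdh1, and N-cadherin, the product of Cdh2, are the usual markers of epithelial and mesenchymal states.

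Sequences from the promoter windows of Cdh10 and Pcdh19 are shown because these genes had the largest rise and the largest fall among the members. Of the 56 genes, 20 have a promoter window in the RefSeq table of build GRCm38.p6. The sequences are written 5′ to 3′ on the strand of the gene, with CpG dinucleotides in capitals. The Cdh10 sequence is chr15:18820079-18820328 on the plus strand, the 250 bases before the start site that its window is set on. It lies inside the span of the gene in RefSeq, 1210 bases from that span's first base. The Pcdh19 sequence is chrX:133689045-133689243 on the minus strand, the 199 bases of its window that lie outside the gene.
Cdh10: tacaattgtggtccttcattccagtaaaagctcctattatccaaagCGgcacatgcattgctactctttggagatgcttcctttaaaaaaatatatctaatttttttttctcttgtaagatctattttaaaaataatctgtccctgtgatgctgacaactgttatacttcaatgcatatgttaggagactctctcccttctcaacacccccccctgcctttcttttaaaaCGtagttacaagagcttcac
Pcdh19: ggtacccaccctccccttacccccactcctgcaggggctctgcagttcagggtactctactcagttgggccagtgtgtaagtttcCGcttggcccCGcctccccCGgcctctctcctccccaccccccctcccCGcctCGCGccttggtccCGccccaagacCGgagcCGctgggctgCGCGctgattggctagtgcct
The Cdh10 sequence has 2 CpGs and 36.8% G and C. The Pcdh19 sequence has 11 CpGs and 68.8% G and C. Over the full windows of 250 bases the counts were 2 and 16 CpGs, beside a median of 6 over all 32851 windows. The E-box CAGGTG, searched on both strands, is in 17.2% of all windows. The letters TTTATG, a core of CDX factor motifs, are in 10.8%. Neither is in these 2 windows, which says only that these letters do not occur there.

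The targeted gene, Pik3ca, had a mean intensity of 2379 ± 66.3 on the control arrays, against 1236 ± 13.1 on the PIK3CA shRNA arrays (SD, n = 3 each). A change is the PIK3CA shRNA mean less the control mean of log2(intensity + 16), so the changes of dim genes are understated. Each gene was represented by its brightest probe set, tested with limma over all 18193 genes, and called at an adjusted p below 0.05. Of all genes 2093 (11.5%) were called, a count that fell to between 945 and 1144 when any 1 of the 6 arrays was left out. The cells read as epithelial by Cdh1, Krt8, Krt18 and Krt19, with mean intensities from 5440 to 14211, while Epcam read 467 in control and 369 in PIK3CA shRNA cells (-0.33, not called) and the claudin genes Cldn4 and Cldn7 were dim, from 82.2 to 156. Leukocyte markers had 2 of 14 measured genes higher, Fcgr3 and Cd14, with summed intensities of 2610 to 2875 in control and 3170 to 3924 in PIK3CA shRNA arrays, while the pan-leukocyte marker Ptprc was dim at 63.1 and 58.6. Fibroblast and endothelial markers had 1 of 11 and 0 of 10 called, with overlapping sums.

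Among the 56 cadherin and protocadherin genes, 3 rose and 4 fell in PIK3CA shRNA cells. Cdh10, Cdh17 and Cdh2 rose, and Pcdh19, Pcdhb20, Pcdhb21 and Pcdhb22 fell. The 7 called genes are 12.5% of the members, close to the 11.5% of all genes. The background is 5.88% for rises and 5.62% for falls. Of the called members, 2 rose and 2 fell by at least 1 on the log2 scale. The median change was -0.06 over the members and -0.01 over all genes. The arrays of the groups did not overlap in 16 of the 56 genes (28.6%), 6 higher and 10 lower, beside 33.1% of all genes, 16.1% higher and 17% lower. In the test over all 45037 probe sets, 4 member probe sets rose and 4 fell of 101 (7.92%), beside 4.94% of all probe sets, 2.64% higher and 2.3% lower. Groups did not overlap in 24 member probe sets, 8 higher and 16 lower, beside 27.2% of all probe sets, 13% higher and 14.2% lower.

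Most members were dim. In 28 of the 56 genes the brightest probe set lay at or below the lower quartile of all genes by mean intensity, and only 10 had a group mean above the median intensity of all genes, 250.6. In 6 genes both group means were below 16, the constant added before the logarithm. The file gives no detection calls, so a dim value cannot be told from background. Among the 45 genes that were dim in both groups and not called, changes ran from -0.90 to 0.47 with a median standard error of 0.18. The share called depends on brightness. Of genes at or below the median by mean over all arrays, 5.2% were called, beside 3 of 48 members (6.25%). Above it 17.8% were called, beside 4 of 8 members, of which Cdh10 is there only through its PIK3CA shRNA arrays.

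**Figure D1:**
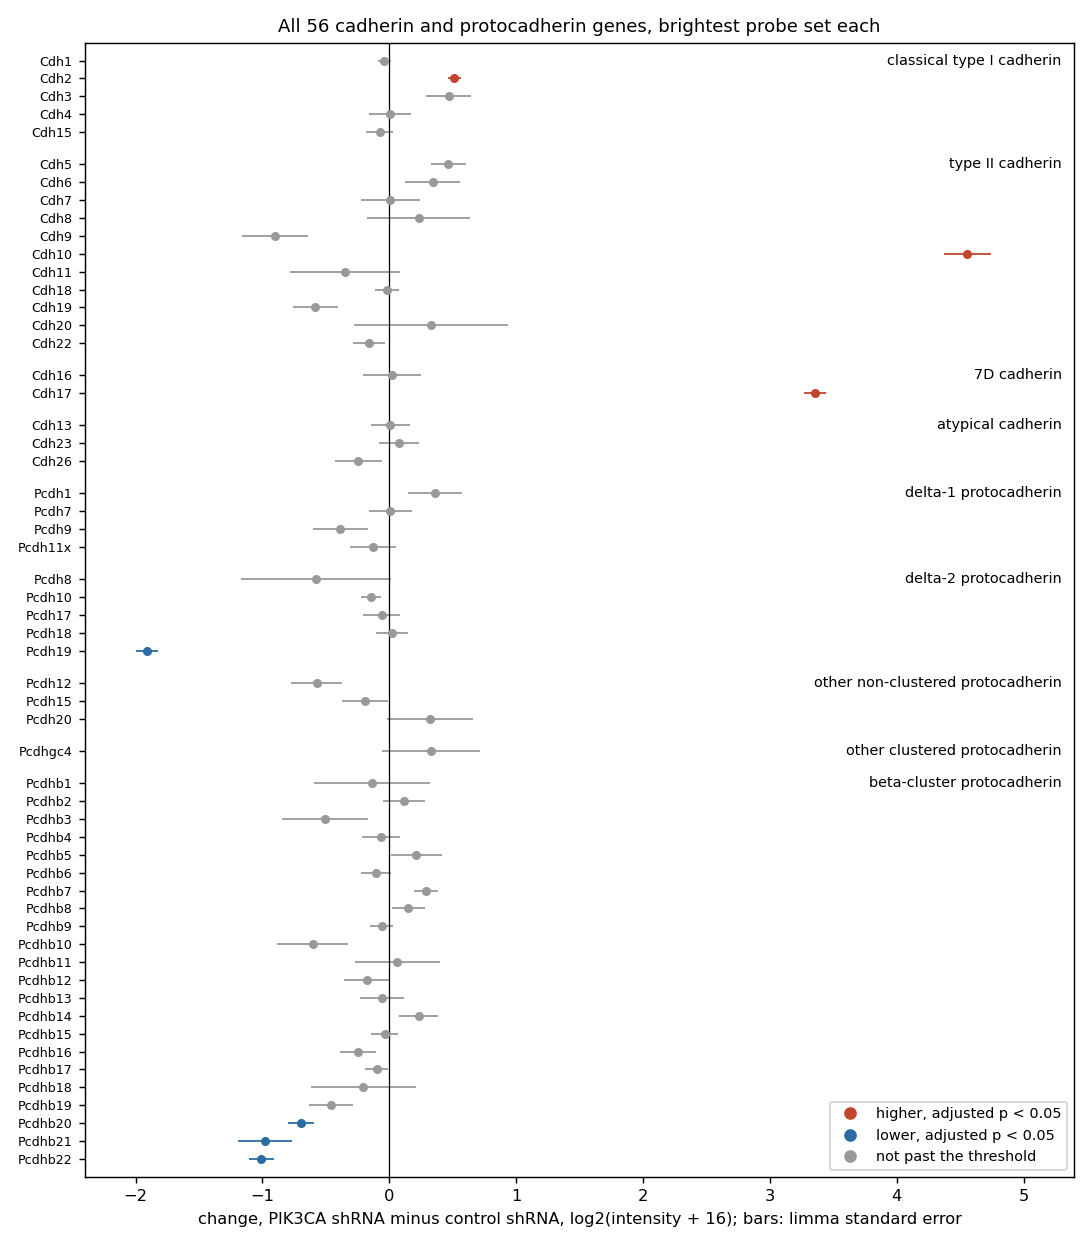
Change of the brightest probe set of each of the 56 genes (horizontal axis, log2 scale, PIK3CA shRNA minus control shRNA), with bars for the limma standard error and genes grouped by class. Cdh10 at 4.56 and Cdh17 at 3.36 stand far to the right and Pcdh19 at -1.91 to the left, while most other genes lie within 1 of 0.

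The classical type I cadherins make up the adherens junctions of epithelia, neurons and muscle. Of the 5 genes, 1 rose and 0 fell. Cdh1 was the brightest member, at 11209.3, 11207.5 and 11610.6 in the control arrays and 11032.3, 10958.7 and 11155.5 in the PIK3CA shRNA arrays. All 3 PIK3CA shRNA arrays were just below all 3 control arrays. The change was -0.04, with a 95% interval from -0.17 to 0.09, and did not pass the test (limma adjusted p = 0.716). Values this bright lie near the top of the scale, where an array can respond less than in proportion.

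Cdh2, encoding N-cadherin, is the classical cadherin of neural and mesenchymal cells. Its brighter probe set, 1418815_at, read 1240.1, 1224.4 and 1277.9 in control and 1810.7, 1751.2 and 1802.6 in PIK3CA shRNA arrays. The groups were well apart, and the rise was 0.51 (SE 0.05, limma adjusted p = 0.00515). The dimmer probe set, 1449244_at, read 391.5, 405.3 and 437.2 in control and 421.9, 425.9 and 518.0 in PIK3CA shRNA arrays. There the groups overlapped, the change was 0.14, and the test over all probe sets did not pass (limma adjusted p = 0.555). With the mean of both probe sets the change was 0.32 and the call was lost (limma adjusted p = 0.0524). Transcripts of both N-cadherin and E-cadherin were thus above the median of all genes in each group.

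The other 3 type I genes were dim. Cdh3, encoding the P-cadherin of basal epithelia, read 27.7 ± 2.63 in control and 45.4 ± 14.2 in PIK3CA shRNA cells (SD, n = 3 each). Its groups did not overlap, but the change of 0.47 did not pass (limma adjusted p = 0.169), and its second probe set read -0.24. Cdh4 (R-cadherin) and Cdh15 (M-cadherin, of muscle) changed by 0.01 and -0.07 and were not called.

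Type II cadherins bind more selectively and are best known from neurons, mesenchyme and vessels. Of the 11 genes measured, Cdh10 alone was called, and it rose. Its brightest probe set, 1425092_at, read 55.6, 33.6 and 57.1 in control and 1390.4, 1367.9 and 1724.4 in PIK3CA shRNA arrays. The lowest PIK3CA shRNA array was thus far above the highest control array. The control values are dim and may be background, so no ratio of the means is given. On the log2 scale the rise was 4.56 (SE 0.18, limma adjusted p = 0.000234).

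A second Cdh10 probe set, 1460538_at, read 76.3, 54.5 and 79.2 in control and 286.6, 351.2 and 257.3 in PIK3CA shRNA arrays, a rise of 1.87 (limma adjusted p = 0.00527 over all probe sets). Another, 1433302_at, read 70.1, 162.5 and 153.6 in control and 119.3, 142.5 and 131.7 in PIK3CA shRNA arrays. Here the PIK3CA shRNA arrays lay inside the control range, with a change of 0.09. The last, 1446399_at, was at the bottom of the scale in all arrays, between 2.0 and 5.7. The size of the Cdh10 rise thus depended on the probe set, between 1.87 and 4.56 for those that changed. By their annotation 1460538_at and 1433302_at come from the same source sequence, yet only 1460538_at was called. Which part of the transcript each probe set reads is not known here.

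The genes next to Cdh10 in RefSeq order include other type II cadherins, and none of those was called. Cdh9 read 61.5, 51.6 and 65.6 in control and 40.51, 12.01 and 25.55 in PIK3CA shRNA arrays, with every PIK3CA shRNA array below the controls and a change of -0.90 that did not pass (limma adjusted p = 0.0930). Cdh6, the kidney cadherin, changed by 0.34 with overlapping groups. Cdh18 was near the bottom of the scale, with group means of 2.31 and 2.08. Of the 10 tested genes nearest to Cdh10, 5 on each side, 2 were called higher and 0 lower, with a median change of -0.01 and none above 0.54.

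Since Cdh10 is known mainly from brain, neural markers were read beside it. Of 12 measured, 0 rose and 1 fell, the neuronal tubulin gene Tubb3 at -1.41. Their summed intensity was 2725 to 3197 in control and 2860 to 2959 in PIK3CA shRNA arrays, the latter range lying within the former. Most of this sum came from Ncam1, the only 1 of the 12 above the median of all genes. It read 1837 ± 128 in control and 1885 ± 108 in PIK3CA shRNA cells (SD, n = 3 each) and was not called. The remaining type II genes were dim and not called. Cdh19 read 34.7 ± 4.15 in control and 18.4 ± 7.61 in PIK3CA shRNA cells (SD, n = 3 each). Every PIK3CA shRNA array was below the controls, with a change of -0.58 (limma adjusted p = 0.104). Cdh5, the cadherin of endothelial junctions, read 67.6 ± 4.46 in control and 101 ± 19.2 in PIK3CA shRNA cells (SD, n = 3 each), with groups that did not overlap and a change of 0.47 (limma adjusted p = 0.0950). Without PIK3CA shRNA replicate 1 it passed, at 0.61 (limma adjusted p = 0.0339). The other Cdh5 probe set, 1433956_at, read 60.6 in control and 69.5 in PIK3CA shRNA cells (means, n = 3 each). There the groups overlapped, and the change of 0.14 was not called (limma adjusted p = 0.795 over all probe sets). The endothelial marker Pecam1 went the other way in the means, 67.4 in control and 33.7 in PIK3CA shRNA cells, and was not called.

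The 7D cadherins carry 2 more extracellular repeats than classical cadherins and a short tail that does not bind catenins. Cdh17, the liver-intestine cadherin of gut epithelium, was read by 1 probe set, 1419331_at. It gave 330.8, 351.1 and 285.8 in control and 3482.3, 3346.0 and 3504.0 in PIK3CA shRNA arrays. The arrays of each group were close together and the groups were far apart, with a ratio of means of 10.7. The rise was 3.36 (SE 0.09, limma adjusted p = 0.000115). Unlike Cdh10, Cdh17 was above the median of all genes in the control group as well. Cdh16, the kidney-specific member of this class, was near the constant of 16 in both groups and was not called (0.02; limma adjusted p = 0.970). None of the 10 genes nearest to Cdh17 in RefSeq order was called, and their changes ran from -0.33 to 0.21.

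**Figure D2:**
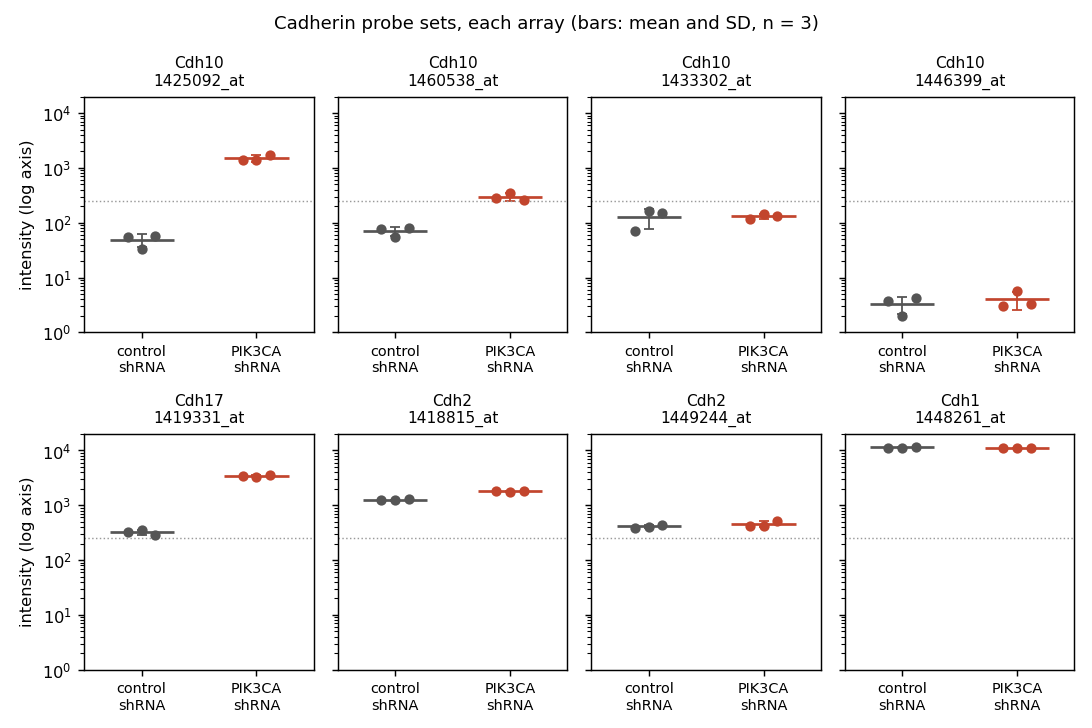
Intensity on each array (log axis) for the 8 probe sets of Cdh10, Cdh17, Cdh2 and Cdh1, control shRNA in grey and PIK3CA shRNA in red, with mean and SD (n = 3) and a dotted line at the median of all genes, 250.6. The first 2 Cdh10 panels and the Cdh17 panel show separated groups, the other Cdh10 panels do not, and Cdh1 is level between 10958.7 and 11610.6.

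Among the cadherins of unusual structure, 0 of 3 genes were called. Cdh13, or T-cadherin, is held in the membrane by a lipid anchor and has no cytoplasmic tail. It read 357.5, 376.8 and 316.2 in control and 326.7, 438.7 and 302.1 in PIK3CA shRNA arrays, a change of 0.01 with a 95% interval from -0.38 to 0.39. Cdh23, of hair-cell tip links, and Cdh26 were dim, with changes of 0.08 and -0.25.

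The non-clustered protocadherins fell into 3 sets. Of the 4 delta-1 genes (Pcdh1, Pcdh7, Pcdh9 and Pcdh11x), 0 were called, with changes from -0.39 to 0.36. Pcdh1 passed only without control replicate 3, at 0.60 (limma adjusted p = 0.0237). Of the 5 delta-2 genes 1 was called, and it was Pcdh19. Pcdh12, Pcdh15 and Pcdh20 were dim and not called.

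Pcdh19, an X-linked delta-2 protocadherin whose loss in people causes a form of epilepsy, had groups that did not overlap in any of its 3 probe sets, and fell by 2 of them. The brightest, 1455145_at, read 740.5, 707.3 and 757.7 in control and 206.4, 169.3 and 178.5 in PIK3CA shRNA arrays, which is 25.1% of the control mean. The change was -1.91 (SE 0.09, limma adjusted p = 0.000350). The second, 1437360_at, read 274.7, 261.2 and 345.7 in control and 65.3, 53.1 and 53.8 in PIK3CA shRNA arrays, a change of -2.07 (limma adjusted p = 0.00190 over all probe sets).

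The third Pcdh19 probe set, 1444422_at, read 239.3, 174.7 and 246.9 in control and 120.0, 126.9 and 133.0 in PIK3CA shRNA arrays. Its change of -0.72 just missed the threshold (limma adjusted p = 0.0513 over all probe sets), and it passed without control replicate 2 (-0.86; limma adjusted p = 0.0281). The next delta-2 gene, Pcdh10, has 6 probe sets, all dim, with changes from -0.30 to -0.05 and none called. Of the 10 tested genes nearest to Pcdh19 in RefSeq order, 1 was called, and it was lower. Their changes ran from -0.57 to 0.20, so none fell as far as Pcdh19.

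The clustered protocadherin genes lie in arrays of related copies, and the signal of 1 copy may include RNA of its neighbours. The 22 beta-cluster genes each consist of 1 coding exon. Of them 0 rose and 3 fell, where 5.88% of all genes rose and 5.62% fell. The 3 lie at the end of the cluster nearest to the gamma genes. Pcdhb22 read 333.5, 299.3 and 291.6 in control and 128.7, 147.2 and 160.2 in PIK3CA shRNA arrays, with a change of -1.01 (SE 0.10, limma adjusted p = 0.00396). Pcdhb20 read 329.2, 312.2 and 290.5 in control and 212.6, 167.4 and 179.5 in PIK3CA shRNA arrays, a change of -0.69 (limma adjusted p = 0.0141). For both, every PIK3CA shRNA array was below every control array.

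Pcdhb21 was dimmer. Its brighter probe set read 143.9, 149.1 and 126.8 in control and 76.4, 77.4 and 40.9 in PIK3CA shRNA arrays, a change of -0.98 (limma adjusted p = 0.0422 over genes and 0.0654 over all probe sets). Its other probe set read 112.0, 118.0 and 90.3 in control and 70.2, 58.4 and 51.6 in PIK3CA shRNA arrays, with no overlap and a change of -0.69 (limma adjusted p = 0.0503 over all probe sets). The next gene inward, Pcdhb19, read 182.1, 214.7 and 185.7 in control and 104.9, 169.8 and 141.7 in PIK3CA shRNA arrays. These groups did not overlap either, but the change of -0.46 did not pass (limma adjusted p = 0.165).

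The calls of Pcdhb20 and Pcdhb21 were lost without some single arrays. The limma adjusted p of Pcdhb20 was 0.0560 without control replicate 1, 0.0575 without control replicate 2 and 0.0588 without PIK3CA shRNA replicate 3, and from 0.0204 to 0.0440 without each of the other 3 arrays. That of Pcdhb21 was 0.121, 0.127 and 0.0994 without control replicates 1, 2 and 3, and 0.0781 and 0.0667 without PIK3CA shRNA replicates 1 and 2, while the call was kept without PIK3CA shRNA replicate 3 (0.0260). The number of falls among the members was then 2 without control replicate 1 or 2, and 3 without any other array. In the test over genes, Cdh10, Cdh17, Cdh2, Pcdh19 and Pcdhb22 kept their calls without each of the 6 arrays. For Cdh2 this did not hold in the test over all probe sets. There 1418815_at passed with all arrays (limma adjusted p = 0.0155) but not when any 1 of the 6 was left out.

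Along the cluster, in RefSeq order, the groups did not overlap in 4 of the last 4 genes, all lower, with changes from -1.01 to -0.46. Of the first 18 genes 1 was lower and 1 higher without overlap, and 0 were called, with changes from -0.60 to 0.29 and a median of -0.06. Over all genes 17% were lower and 16.1% higher without overlap. Apart from Pcdhb16 and Pcdhb17, each of the first 18 had a control mean below those of the last 4, which ran from 140 to 311. The division into the first 18 and the last 4 was chosen after the values were seen and was not tested. Next to these 4 genes lies Pcdhb18, which was dim in both groups, and then the brightest beta gene, Pcdhb17. It read 789 ± 39.9 in control and 736 ± 69.0 in PIK3CA shRNA cells (SD, n = 3 each), with overlapping groups and a change of -0.10 with a 95% interval from -0.32 to 0.12. Pcdhb16 read 496 ± 81.4 and 412 ± 42.0 (SD, n = 3 each) by its brightest probe set, which was not called (limma adjusted p = 0.345), and its other 2 probe sets read 0.20 with overlapping groups and -0.24 with every PIK3CA shRNA array below every control array, neither called. These 2 brightest genes of the cluster were thus not called. Beyond its end, Pcdhgc4, the only gamma gene with a probe set of its own here, was dim and changed by 0.33 with overlapping groups.

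**Figure D3:**
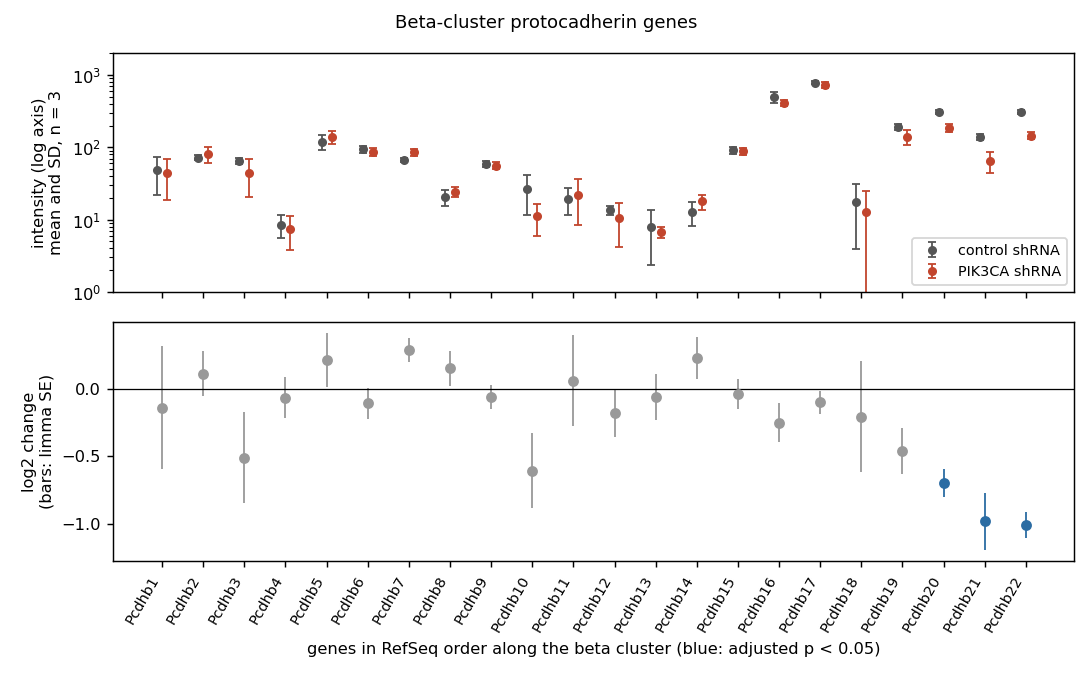
The 22 beta-cluster genes in RefSeq order, with mean intensity and SD (n = 3, log axis, bars cut at 1) above and the log2 change with its limma standard error below. The last 4 points lie below 0, from -0.46 at Pcdhb19 to -1.01 at Pcdhb22, and the 3 in blue passed the test.

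**Figure D4:**
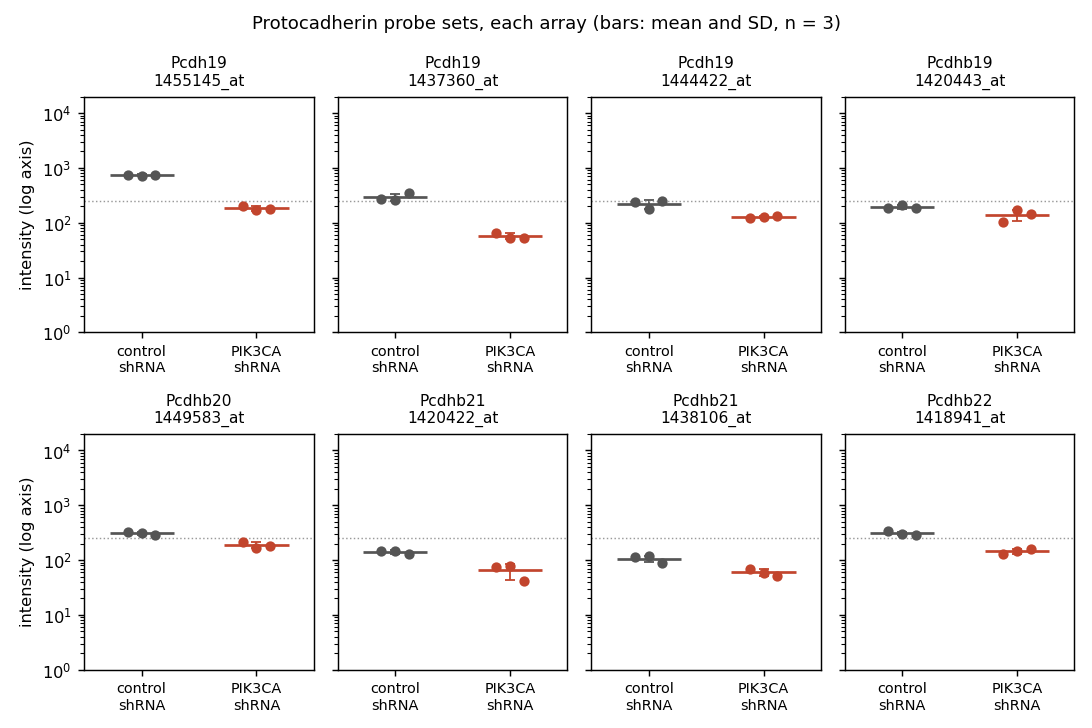
Intensity on each array (log axis) for the 3 probe sets of Pcdh19 and those of Pcdhb19 to Pcdhb22, with mean and SD (n = 3) and a dotted line at the median of all genes, 250.6. No red PIK3CA shRNA point reaches a grey control point in any panel, and the gap is widest for the first 2 Pcdh19 panels.

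Genes that act with cadherins were read from lists of partners. Over all genes 5.88% rose and 5.62% fell, and no test was run over a list. Of 24 catenins and other proteins of the cadherin tail, 2 rose and 1 fell, with a median change of 0.05 beside -0.01 over all genes. The alpha-catenin-like gene Ctnnal1 rose from 488 ± 24.9 to 746 ± 20.3 (SD, n = 3 each), by both of its probe sets. Vcl, which encodes the actin linker vinculin, fell by 0.42 by 1 of its 2 probe sets (limma adjusted p = 0.0142), with an adjusted p of 0.0570, 0.0557, 0.0528 and 0.0508 without control replicate 1, control replicate 3, PIK3CA shRNA replicate 1 and PIK3CA shRNA replicate 2. The scaffold gene Magi1 rose by 1.39 (limma adjusted p = 0.0183), with 1 of its 5 probe sets called, but by 0.60 or less without any 1 PIK3CA shRNA array, where another of them is the brightest and it was not called (0.0767 to 0.137). It also lost its call without control replicate 2 (0.0599) or 3 (0.0673). Beta-catenin and alpha-catenin, named here for their place in the junction and not by the naming rule, were bright: Ctnnb1 changed by -0.01 and Ctnna1 by 0.03, and neither was called.

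Nectins are immunoglobulin-type proteins that join cells at the same junctions. Of 5 genes with the nectin-like receptor Pvr, 2 rose and 0 fell, where 5.88% of all genes rose and 5.62% fell. Nectin3 rose by 0.60 (limma adjusted p = 0.0147), with 4 of its 6 probe sets called, and Pvr by 0.46 (limma adjusted p = 0.0154), with 1 of its 7 probe sets called and changes from 0.08 to 0.62. Both lost their calls without control replicate 1 or PIK3CA shRNA replicate 3, at adjusted p from 0.0565 to 0.0637. Nectin3 also lost its call without PIK3CA shRNA replicates 1 (0.0598) and 2 (0.0502), and Pvr without control replicates 2 (0.0571) and 3 (0.0563).

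Other branches of the cadherin superfamily include desmosomal cadherins and the large planar polarity cadherins. Of 23 measured genes 1 rose and 2 fell, with a median change of -0.04. The rise was in Dsg2, the desmoglein of simple epithelia, from 178 ± 5.89 to 1000.0 ± 40.5 (SD, n = 3 each), a change of 2.39 (limma adjusted p = 0.000115). Of its 6 probe sets 4 were called higher, 5 had groups that did not overlap and were higher, and 1 dim probe set read -0.01. Celsr2, a planar polarity cadherin, fell by 0.51 (limma adjusted p = 0.0120), and its call was lost without control replicate 2 (0.0513) and PIK3CA shRNA replicate 1 (0.0522). Clstn1, a calsyntenin, fell by 0.36 (limma adjusted p = 0.0374), with 0 of its 2 probe sets called in the test over all probe sets, and lost its call without each single array, at adjusted p from 0.0703 to 0.111. Among 16 measured proteases that cut or mature cadherins, 0 rose and 1 fell, Mmp3 at -0.48 (limma adjusted p = 0.0403), a call lost without each array but PIK3CA shRNA replicate 1, at adjusted p from 0.0757 to 0.120.

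Transcription factors known to act on cadherin genes had 4 of 25 measured genes higher and 2 lower, with a median change of 0.03. Over all genes 5.88% were higher and 5.62% lower. Of the 25 factors, 15 lay above the median by mean intensity, where 17.8% of all genes were called. Cdx2, the intestinal homeobox factor known to activate Cdh17 in gut, read 97.8 ± 18.2 in control and 863 ± 68.0 in PIK3CA shRNA cells (SD, n = 3 each). Its change was 2.96 (limma adjusted p = 0.000345), and both of its probe sets were called. Hnf4a, a nuclear receptor of gut and liver epithelium, rose from 1778 ± 78.9 to 3931 ± 247 (SD, n = 3 each), by 1.14, with 3 of 4 probe sets called. These gut-type factors moved with Cdh17, and their part in its rise was not tested.

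Snail and Zeb factors are known repressors of Cdh1. Snai2, the Slug gene, fell by 0.49 by its brighter probe set (limma adjusted p = 0.00767), while its other probe set read 0.33 with overlapping groups, and their mean read -0.08. Gata3, a factor of luminal epithelia and T cells, fell from 97.6 ± 6.62 to 14.4 ± 7.94 (SD, n = 3 each), below the median of all genes in both groups. Zeb1 and Zeb2, named for their role and not by the naming rule, read 0.36 and 0.25 with no overlap between groups, and neither passed (limma adjusted p = 0.116 and 0.0818). These values are from the brightest of 4 Zeb1 and 5 Zeb2 probe sets, and the others are not given here. Snai1 and Snai3 read 0.45 and -0.03 with overlapping groups and were not called. The remaining called genes of this list, Klf4 and Foxa1, rose by 0.46 and 0.38 (limma adjusted p = 0.0112 and 0.0139). For Klf4, 1 of its 2 probe sets was called. The calls of Klf4 and Foxa1 were not followed with single arrays left out.

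**Figure D5:**
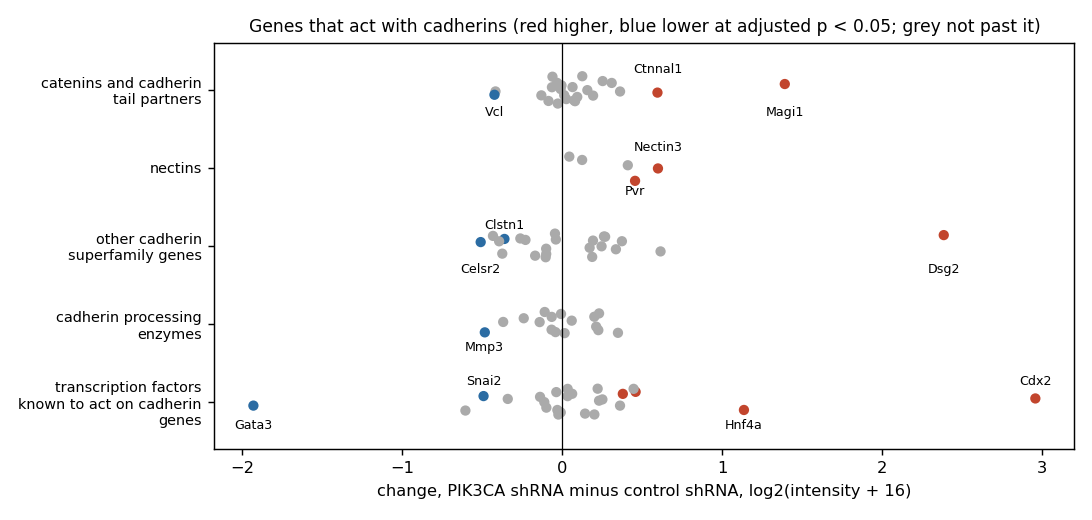
Change of each measured gene in 5 lists of genes that act with cadherins (horizontal axis, log2 scale; points are jittered vertically), with called genes among the 4 of smallest adjusted p in each list named. Cdx2 at 2.96 and Dsg2 at 2.39 lie farthest to the right and Gata3 at -1.93 farthest to the left, while catenins gather around 0.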

How the data were processed

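RNA of 3 control shRNA and 3 PIK3CA shRNA samples was read on Affymetrix mouse arrays, 1 per sample, with biotin labelling per the labels. The authors' deposited values are linear intensities per probe set. The 6 arrays had nearly equal quartiles (lower 37.5 to 37.6, upper 533 to 535), which shows an earlier normalization, by a method not given in the sources used here. On each array 15.0% of values were below 16. Precision is limited by the number of arrays.

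Each array was divided by its median relative to the others, and log2(intensity + 16) was fitted in R 4.3.3 using limma 3.58.1 (lmFit, eBayes, Benjamini-Hochberg, two-sided), without the 64 control probe sets: over 18193 genes, each by its brightest probe set with 1 symbol, and over 45037 probe sets. Printed intensities are as deposited. All 56 member genes matched RefSeq by gene identifier. The steps were tested on simulated data. Named were Cdh10, Cdh17, Cdh1, Cdh2 and Pcdh19, every called member, members above the all-gene median, and at most 4 genes of a list by adjusted p; the other names were added after their values were seen. The members and lists were chosen with earlier results of these data known. Figures used matplotlib 3.10.9 in Python 3.11.15.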

Additional observations from a re-analysis of the deposited data

How the results depend on the processing

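The calls of Cdh10, Cdh17 and Pcdh19 as genes held under all 16 alternatives run for each, with changes of 1.64 to 4.94, 3.18 to 3.42 and -2.07 to -1.57. Over the single values followed, 559 alternative values were computed: 482 kept direction and side of the threshold, 66 lost a call, 7 gained one and 4 turned in sign. The 4 were of values that were not called: Cdh13 at -0.06 without control replicate 3 and -0.15 without PIK3CA shRNA replicate 2 (range over single arrays left out -0.15 to 0.11), the Cdh10 probe set 1433302_at at -0.25 without control replicate 1 (-0.25 to 0.28), and 1446399_at at -0.0066 without PIK3CA shRNA replicate 2 (-0.0066 to 0.090).

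Replicate numbers were shared between groups, but same-numbered arrays did not deviate together (r = 0.06, -0.01 and -0.02), and 2 of 6 arrays correlated best with their own number. With the replicate block, which leaves fewer degrees of freedom, 413 genes and 185 probe sets were called, against 2093 and 2225 without it. Among the members 2 genes rose (Cdh10 and Cdh17) and 1 fell (Pcdh19), with 2 probe sets higher and 2 lower.

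At an adjusted p of 0.01, 636 genes and 593 probe sets were called, with 2 member genes and 3 member probe sets lower. An intensity trend with a robust prior gave 3192 genes and 4672 probe sets. A constant of 64 gave 3631 probe sets, and 7 member probe sets were lower with it, as without dim features. Leaving out 1 array gave 945 to 1144 genes and 731 to 1015 probe sets, with 3 to 4 member genes higher and 2 to 3 lower, and 3 member probe sets higher and 3 to 4 lower. The causes were not tested. No scaling, quantile and upper quartile scaling each left 3 member genes higher and 4 lower. Dim signal limits what these arrays can show of the 45 members that were dim in both groups and not called. The called gene Pcdhb21 was dim in both groups as well.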

Other observations

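Another 6 probe sets name several alpha-cluster protocadherin genes at once and were left out of the counts of members, since their signal cannot be given to 1 gene. The brightest, 1425017_at, read 141 in control and 79.4 in PIK3CA shRNA cells (means, n = 3 each), with groups that did not overlap and a change of -0.73 that did not pass (limma adjusted p = 0.0756 over all probe sets). Another, 1427687_at, read 3.33 and 27.99, with groups that did not overlap, and also did not pass (limma adjusted p = 0.166). In the other 4 the groups overlapped.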
